A study of Arabidopsis thaliana with 9 samples.

Results

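The AGAMOUS-like genes of Arabidopsis thaliana described here are the 74 genes, of 33602 listed, whose deposited description begins with that name. The name matched 76 genes, and FUL (AGL8) and AGL62 were left out by the rule of selection, which used no measured level. Transcripts were measured in siliques, the seed pods with their seeds, of Columbia plants grown in a greenhouse and sampled 12 days past anthesis. Napin:SCL15 plants carried SCL15, a regulator of the GRAS family, driven by the promoter of a seed storage protein, napin, and overexpressed it in seeds. The scl15 plants lacked a functional SCL15 gene, with no allele named, and wild type (WT) plants were the background of both. Each group had 3 libraries, labelled as biological replicates, and the labels do not say how many plants or independent transgenic lines stand behind them. The p-values therefore measure the spread between these samples. Whole siliques mix the fruit wall with seed coat, endosperm and embryo, so fewer cells of a type and less RNA per cell cannot be told apart.

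MADS-box proteins are transcription factors named for the domain with which they bind DNA. The type II genes, with several exons, include the regulators of floral organs, flowering time, fruit and root, and a MIKC-star branch known mainly from pollen. The type I genes are short, mostly without introns, and known mainly from the female gametophyte and the endosperm, the tissue that nourishes the embryo.

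SCL15 stood at 526, 569 and 556 TPM (a share of all transcripts, corrected for gene length) in the Napin:SCL15 libraries. It stood at 6.31, 6.39 and 4.82 TPM in scl15 and at 14.4, 16.2 and 10.7 TPM in WT libraries, so the scl15 libraries kept part of the signal. Each library listed 19679 to 21855 genes above 0 TPM. The median log2 fold change of all 16555 genes tested was -0.28 in Napin:SCL15 against WT, -0.38 in Napin:SCL15 against scl15 and 0.10 in scl15 against WT. Median-ratio scaling moved these medians to -0.00, -0.01 and 0.01. Changes of single genes are therefore to be read against those medians, and SCL15 itself changed by 5.24 in Napin:SCL15 and by -1.10 in scl15 against WT (limma adjusted p = 7.0e-11 and 1.9e-04).

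Most AGAMOUS-like genes were silent or nearly so in these siliques. Of the 74 genes, 28 were listed at 0 TPM in all 9 libraries, 34 were above 0 somewhere but averaged under 1 TPM, and 12 averaged at least 1 TPM and were tested. In the TAIR10.1 annotation all 74 were found, and 73 had an AGAMOUS-like product. The exception is AGL26 (AT5G26880), annotated as a tRNA (cytidine(34)-2'-O)-methyltransferase, which goes against its AGAMOUS-like name. By the usual classification of the family, 47 members are type I, 17 are classical type II, 6 are MIKC-star and 4 were not classified. Of the type I genes 37 have a single exon, whereas the classical type II genes have 7 to 9 and the MIKC-star genes 10 to 12. Only 3 of the 47 type I genes were tested and 24 were never above 0 TPM, against 6 of 17 tested and 3 of 17 never above 0 among classical type II genes. Chromosomes 1 and 5 hold 16 and 20 of the type I genes.

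More type I genes were above 0 TPM in scl15 libraries than in those of the other groups, by the counts. Type I genes above 0 numbered 6, 4 and 4 in the Napin:SCL15 libraries, 13, 14 and 15 in scl15 libraries and 6 in each WT library. The scl15 counts did not overlap those of either other group. Type II genes above 0 numbered 13, 15 and 13 in Napin:SCL15, 13, 14 and 14 in scl15 and 13 in each WT library, so these counts overlapped. Summed over the 47 type I genes, levels were 8.07, 4.85 and 6.17 TPM in Napin:SCL15, 24.1, 18.9 and 37.5 TPM in scl15 and 9.50, 10.04 and 12.3 TPM in WT libraries. AGL87 and PHE2 made up much of the scl15 sums, and scl15 replicate 3 had the highest sum. All genes above 0 TPM numbered 19679 to 20955 in Napin:SCL15, 20707 to 21855 in scl15 and 20990 to 21469 in WT libraries. The number of reads is unknown, and the part of depth in these counts was not tested.

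**Figure D1:**
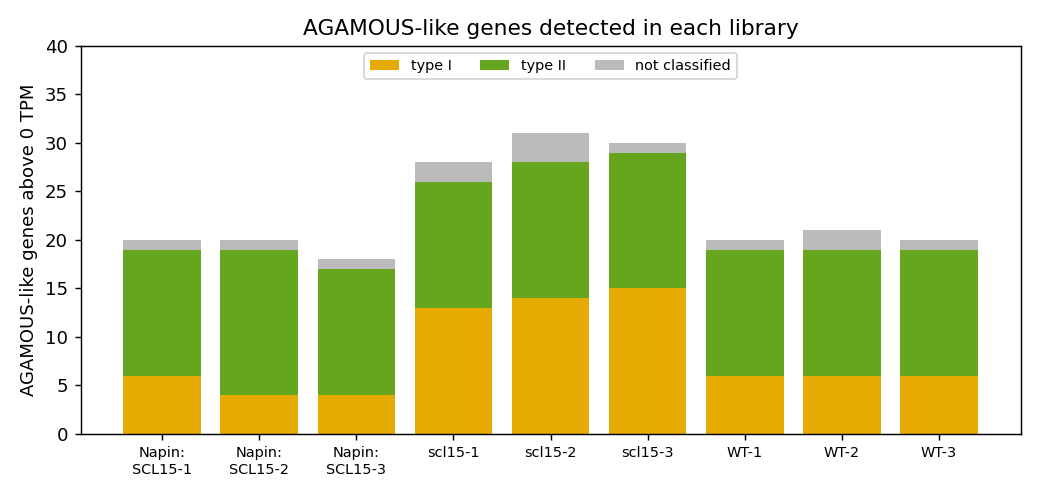
Number of AGAMOUS-like genes above 0 TPM in each of the 9 libraries, stacked by class (type I, type II, not classified). The type I part is 13 to 15 genes in scl15 libraries, against 4 to 6 in Napin:SCL15 and 6 in WT libraries, while the type II part is 13 to 15 everywhere.

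Among the 12 tested genes, 2 rose and 0 fell in scl15 against WT, and 10 were not past the threshold, an adjusted p of 0.05 from limma over all genes. At an unadjusted p under 0.05 the counts were also 2 and 0. Of all genes tested, 15.5% were called in that comparison, 9.18% higher and 6.31% lower. Against WT, 0 rose and 2 fell in Napin:SCL15 (0 and 4 at an unadjusted p under 0.05), with 25.1% of all genes called, 1.68% higher and 23.4% lower. Against scl15, 1 rose and 4 fell in Napin:SCL15, with 49.2% of all genes called, 6.16% higher and 43.1% lower. AGL26, annotated as a tRNA methyltransferase, is 1 of these 4 and is kept in all counts of members. The shares of members called, 2, 2 and 5 of 12, lie near those backgrounds. The members' median log2 fold changes, 0.10 in scl15 against WT, -0.35 in Napin:SCL15 against WT and -0.47 in Napin:SCL15 against scl15, lie near the medians of all genes. The groups did not overlap for 2 members in scl15 against WT, 3 in Napin:SCL15 against WT and 4 in Napin:SCL15 against scl15, where 33%, 43% and 56.7% of all genes did not overlap. PHE2 is among the 12 through its scl15 libraries alone, so it had to differ, and the counts are no support for a change of the family.

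**Figure D2:**
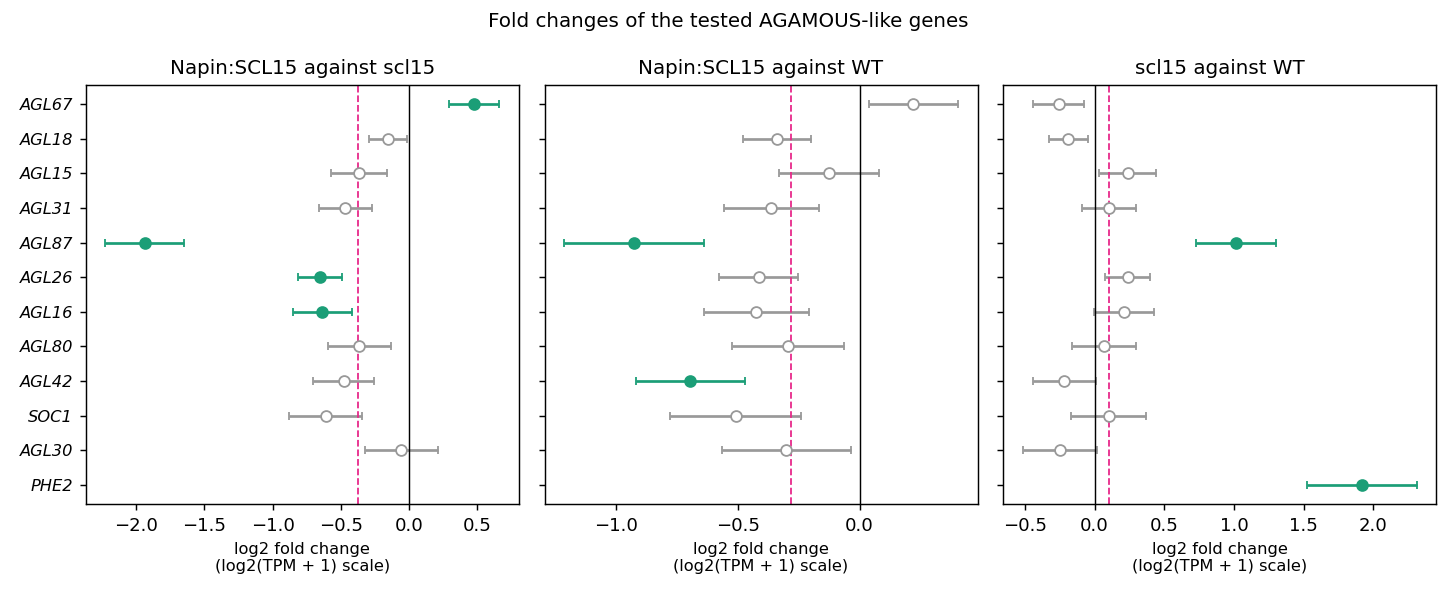
Log2 fold changes with standard errors (bars) of the tested AGAMOUS-like genes in the 3 comparisons, on the log2(TPM + 1) scale; filled green points were called at an adjusted p of 0.05, and the dashed line is the median of all genes tested. AGL87 was called in all 3 panels (-1.94, -0.93 and 1.01), and PHE2 is drawn only in scl15 against WT because it was listed at 0 in Napin:SCL15; it passed the filter through its scl15 libraries alone.

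AGL87 (AT1G22590) was the type I gene of highest level, and its order was scl15, WT, Napin:SCL15. It stood at 4.47, 2.33 and 1.65 TPM in Napin:SCL15, at 15.2, 8.05 and 17.5 TPM in scl15 and at 5.34, 5.07 and 7.61 TPM in WT libraries. No 2 groups overlapped. The means were 2.82 ± 1.47, 13.6 ± 4.95 and 6.01 ± 1.39 TPM (SD, n = 3). The level in Napin:SCL15 was 0.207 times that in scl15, a log2 fold change of -1.94 (SE 0.29, limma adjusted p = 1.2e-04), which was called under all 18 alternative settings. Against WT it rose in scl15 by 1.01 (SE 0.29, adjusted p = 0.0287) and fell in Napin:SCL15 by 0.93 (SE 0.29, adjusted p = 0.0319). Both calls against WT are fragile. The call in scl15 ended without WT replicate 1 (adjusted p = 0.0993), WT replicate 2 (0.0966), scl15 replicate 1 (0.118) or scl15 replicate 3 (0.125), and with median-ratio scaling (0.0532). The call in Napin:SCL15 ended without WT replicate 1 (0.0606), WT replicate 3 (0.11), Napin:SCL15 replicate 2 (0.102) or replicate 3 (0.103), and with median-ratio scaling (-0.67, adjusted p = 0.20). The gene lies on chromosome 1 at 7981722 to 7984334 (TAIR10.1) and, unlike most type I genes, has 3 exons.

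PHE2 (AGL38, AT1G65300), the near copy of PHERES1 (PHE1), which is imprinted in the endosperm, was listed at 0 in every Napin:SCL15 library. It stood at 0.809, 3.47 and 7.06 TPM in scl15 and at 0.208, 0 and 0 TPM in WT libraries. Every scl15 library lay above every WT library, though the scl15 values were spread widely. It passed the filter of 1 TPM only through its scl15 libraries, so its fitted difference is set in part by the filter and no p is given. Without scl15 replicate 3 it averaged under 1 TPM and was not tested. Of its 50-base stretches 8.07% recur elsewhere in the genome, so reads shared with close copies make its level uncertain. PHE1 itself stood at 2.93, 2.00 and 2.58 TPM in Napin:SCL15, at 2.19, 4.82 and 8.77 TPM in scl15 and at 3.11, 4.69 and 2.33 TPM in WT. These PHE1 groups overlapped and the log2 fold change in scl15 against WT was 0.41 (adjusted p = 0.463). AGL80, which specifies the central cell from which the endosperm arises, averaged 2.51 TPM in Napin:SCL15, 3.53 TPM in scl15 and 3.24 TPM in WT, was not past the threshold in any comparison, and its groups overlapped.

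**Figure D3:**
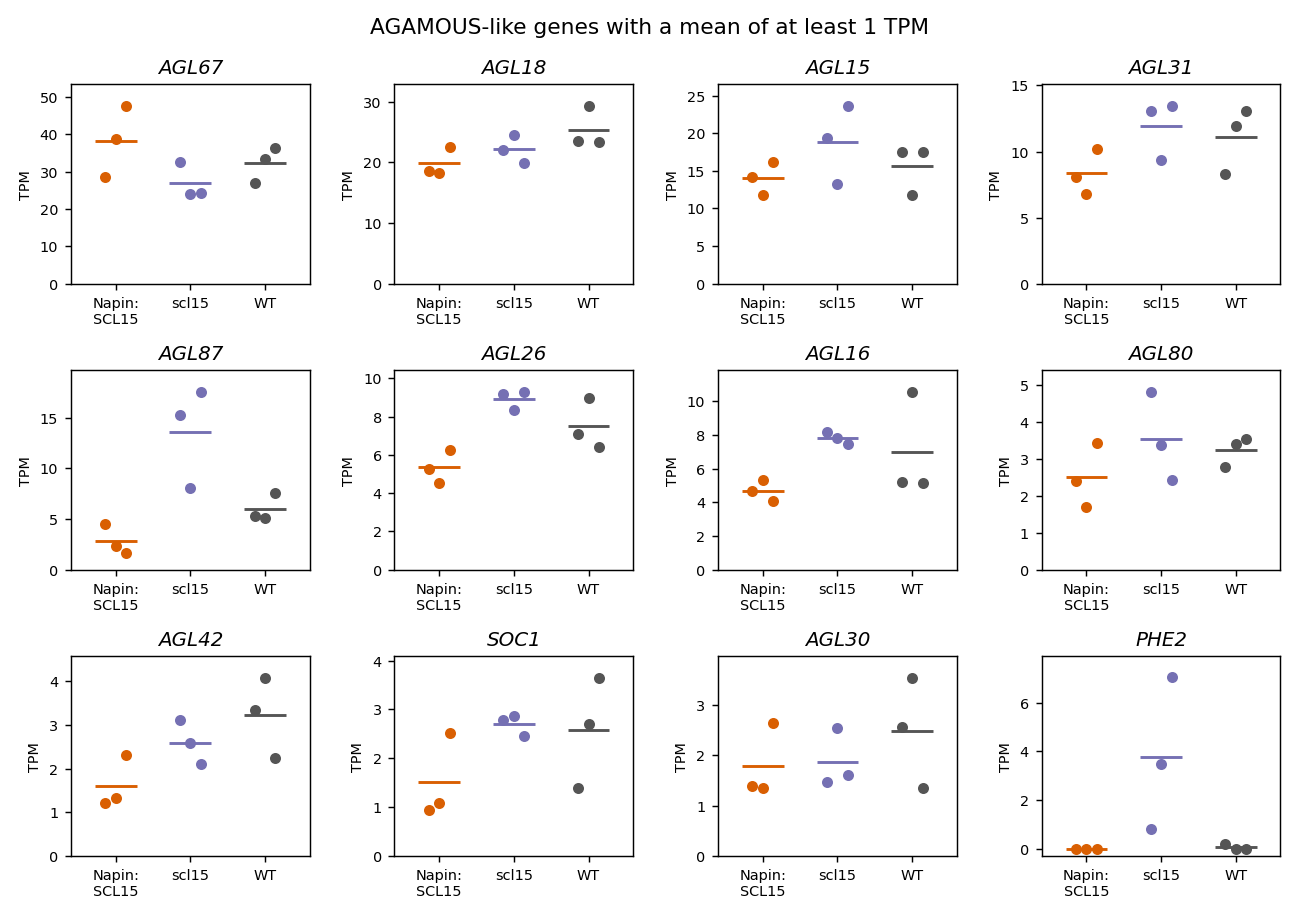
TPM of the 12 tested AGAMOUS-like genes in each library (points), with group means (lines), for Napin:SCL15, scl15 and WT; each panel has its own linear axis. AGL87 has 3 groups that do not overlap, PHE2 is near 0 outside scl15, and most other genes overlap between groups.

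Below the level filter, 5 further members were above 0 in every scl15 library and listed at 0 in every Napin:SCL15 and WT library. That is 14.7% of the 34 low members. Of all 7508 low genes, 1.81% were above 0 in every scl15 and at 0 in every WT library. These 5 members count among the 34 only through their scl15 libraries, so the share is no support for a change. The count of 5 and the low members named here, other than AGL86, AGL102, ANR1 and AGL65, were picked after their values were seen. AGL86 (AT1G31630) stood at 0.853, 1.47 and 2.49 TPM and AGL92 (AT1G31640) at 0.555, 0.946 and 0.683 TPM in scl15. AGL91 stood at 0.180, 0.328 and 0.473 TPM, AGL93 at 0.445, 0.101 and 0.0730 TPM, and AGL104 at 0.0955, 0.174 and 0.502 TPM in scl15. The other way round, 1 of the 34 was above 0 in every WT and at 0 in every scl15 library, where 0.919% of low genes were. Between Napin:SCL15 and WT 0 of the 34 split so in either direction, where 0.173% of low genes were above 0 in every Napin:SCL15 library alone and 1.45% in every WT library alone. AGL86, AGL92, AGL91 and AGL93 are type I, and AGL104 is a MIKC-star gene. Of the 50-base stretches of AGL93, 50.9% recur elsewhere, so its reads cannot be placed with certainty.

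With no filter on low values, AGL86, AGL92 and AGL91 were called higher in scl15 against WT, and AGL104 and AGL93 were not. All of these entered that fit through their scl15 libraries alone, so the direction was set beforehand. No p is given for them, and the calls are no support for a change. Of all low genes 4.05% were called higher and 1.52% lower in that fit. No fold is given, since WT was listed at 0. The fits without single libraries were read only for the tested genes, and levels this low may rest on few reads. AGL102, also type I, stood at 0.348, 0.317 and 3.32 TPM in scl15, at 0.314, 0.458 and 0 TPM in WT and at 0 in Napin:SCL15, so its scl15 level is that of replicate 3, and it was not called (adjusted p = 0.338). AGL75, another type I gene, went the other way. It stood at 0.744, 0.422 and 0.751 TPM in Napin:SCL15, at 0.292, 0.0886 and 0 TPM in scl15 and at 0.789, 0.769 and 0.633 TPM in WT. It was called lower in scl15 against WT (-0.63, SE 0.13, adjusted p = 0.0138) and higher in Napin:SCL15 against scl15 (0.54, SE 0.13, adjusted p = 0.0096), and 14.5% of its 50-base stretches recur elsewhere. Between Napin:SCL15 and scl15, 6 low members were called lower (AGL86, AGL92, AGL91, AGL104, AGL78 and ANR1) and 2 higher (AGL75 and AGL94), where 11.2% and 1.35% of low genes were. AGL86, AGL92, AGL91 and AGL104 were above 0 in scl15 libraries alone, so they could only be called lower. The count of 6 is therefore not to be read against that share.

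**Figure D4:**
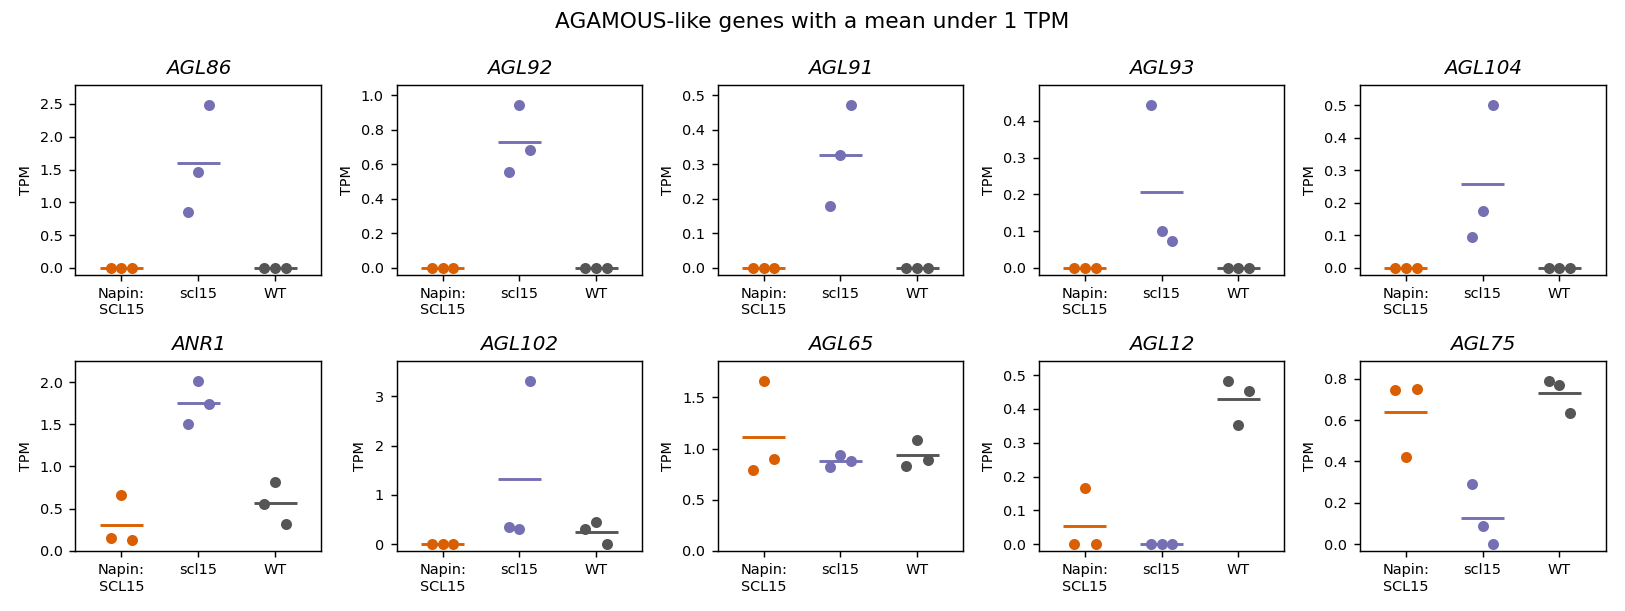
TPM in each library (points) and group means (lines) of 10 AGAMOUS-like genes that averaged under 1 TPM, each on its own linear axis. AGL86, AGL92, AGL91, AGL93 and AGL104 are above 0 only in scl15 libraries, ANR1 is higher there, and AGL12 is above 0 in WT and in 1 Napin:SCL15 library.

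AGL86 and AGL92 are neighbours on the minus strand of chromosome 1. In the 250 bases upstream of annotated starts (RefSeq, TAIR10.1), CArG boxes, the binding motif of MADS-box proteins, were found in 3 of 74 members, 4.05%, and in 2.52% of all 27443 promoters on either strand, and in 0 of the 12 tested members. A match is a description of the letters, not of binding.

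Endosperm markers were given beside the type I genes. Their summed level was 3745 to 8014 TPM in Napin:SCL15, 3016 to 3081 TPM in scl15 and 3755 to 6249 TPM in WT, nearly all from EPR1. Of 6 markers 2 were tested and 0 were called in scl15 against WT (1 higher and 1 lower at an unadjusted p under 0.05), where 15.5% of all genes were called. ZOU, an endosperm regulator, averaged 1.51 TPM in Napin:SCL15, 4.21 TPM in scl15 and 2.21 TPM in WT, with 0.81 in scl15 against WT (adjusted p = 0.120). ZOU fell in Napin:SCL15 against scl15 by 1.11 (adjusted p = 0.0129), a call that ended without Napin:SCL15 replicate 1 (0.0619), with median-ratio scaling (-0.82, adjusted p = 0.0834) and with quantile normalization (0.112), and EPR1 rose by 0.78 (0.0215, or 0.10 without Napin:SCL15 replicate 2 and 0.0562 without scl15 replicate 1). The imprinted gene FWA stood at 0.474, 0.324 and 0.182 TPM in scl15 and at 0.0570 TPM or less in WT, and FIS2 was above 0 in scl15 libraries only, at 0.0484 TPM or less. MINI3 was at 0 throughout and IKU2 at 0.0279 TPM or less. The part of endosperm content in the type I values was not tested.

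Among members with roles in embryo and seed, AGL67, AGL18 and AGL15 had the highest levels of the family. AGL67 (AT1G77950), a MIKC-star gene that restrains germination in the heat, stood at 28.7, 38.6 and 47.6 TPM in Napin:SCL15, at 32.6, 24.0 and 24.1 TPM in scl15 and at 27.0, 33.4 and 36.4 TPM in WT. The ranges of the groups overlapped. AGL67 was higher in Napin:SCL15 than in scl15 by 0.48 (SE 0.18, adjusted p = 0.0432), with means of 38.3 ± 9.46 and 26.9 ± 4.91 TPM (SD, n = 3), and was not past the threshold against WT in Napin:SCL15 (0.22, adjusted p = 0.383) or scl15 (-0.26, adjusted p = 0.401). The call ended without Napin:SCL15 replicate 2 (0.104) or 3 (0.173) and without scl15 replicate 2 (0.119) or 3 (0.118), and the difference was 0.90 (adjusted p = 0.0013) with median-ratio scaling. AGL67 overlaps AT1G77960 on the other strand, and the use of strand in counting is not given in the sources used here. It was the only tested member called higher in Napin:SCL15 in any comparison.

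AGL15 (AT5G13790), which promotes embryo development, stood at 14.2, 11.8 and 16.2 TPM in Napin:SCL15, at 19.4, 13.3 and 23.6 TPM in scl15 and at 17.5, 11.8 and 17.6 TPM in WT. The groups overlapped, and the log2 fold changes of -0.13 in Napin:SCL15 and 0.24 in scl15 against WT were not past the threshold (adjusted p = 0.671 and 0.505). Between Napin:SCL15 and scl15 it was -0.36 (adjusted p = 0.156), past the threshold only with the replicate number as a block (0.0255) and without scl15 replicate 2 (0.0266). AGL18 (AT3G57390), the close relative that acts with AGL15, stood at 18.6, 18.3 and 22.6 TPM in Napin:SCL15, at 22.0, 24.5 and 19.8 TPM in scl15 and at 23.5, 29.3 and 23.3 TPM in WT. Napin:SCL15 lay below WT in every library, with a log2 fold change of -0.34 (adjusted p = 0.0880, or 0.0468 without Napin:SCL15 replicate 3), near the median of all genes.

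The 250 bases upstream of AGL15 are shown because they hold 2 copies of the RY element, CATGCA, to which seed regulators such as FUS3 and ABI3 bind. The sequence is written 5′ to 3′ on the strand of the gene. Capitals mark the copies, the nearer of which begins 53 bases upstream of the annotated start.
AGL15 upstream, chr5:4450959-4451208, minus strand: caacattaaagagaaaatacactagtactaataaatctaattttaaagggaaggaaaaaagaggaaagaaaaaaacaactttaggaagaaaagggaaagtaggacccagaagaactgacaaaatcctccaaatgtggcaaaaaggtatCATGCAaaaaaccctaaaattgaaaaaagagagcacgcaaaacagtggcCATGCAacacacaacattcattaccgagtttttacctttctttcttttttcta
On either strand, an RY element was found in 8.11% of members (6 of 74) and in 8.43% of all promoters. Among the 12 tested members AGL15, AGL16 and AGL80 hold one.

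Seed genes listed as targets of AGAMOUS-like factors, among them AGL15 and AGL67, changed in both directions. Of 7 such genes 5 were tested. In scl15 against WT 1 rose and 2 fell, where 9.18% and 6.31% of all genes did. In Napin:SCL15 against WT 3 rose and 0 fell (0 fell at an unadjusted p under 0.05), where 1.68% and 23.4% did. In Napin:SCL15 against scl15 3 rose and 1 fell, where 6.16% and 43.1% did. ABI5, an abscisic acid response factor, averaged 40.4 ± 4.77 TPM in Napin:SCL15, 5.39 TPM in scl15 and 22.7 TPM in WT. SOM, a repressor of germination that AGL67 activates, averaged 95.5 ± 13.5 TPM in Napin:SCL15, 14.6 TPM in scl15 and 45.6 TPM in WT. SOM changed by 1.06 in Napin:SCL15 and by -1.64 in scl15 against WT (adjusted p = 0.0080 and 4.0e-04), called under all 18 alternatives, beside AGL67, which was not called against WT. ABI3 rose by 0.63 in Napin:SCL15 against WT (adjusted p = 0.0050). FUS3, a target of AGL15, rose by 0.77 in scl15 against WT (limma adjusted p = 0.0360), though its groups overlapped (15.5 to 28.6 TPM in scl15, 9.13 to 16.6 TPM in WT). The FUS3 call ended without WT replicate 1 (0.0649), WT replicate 2 (0.154), scl15 replicate 1 (0.152) or scl15 replicate 3 (0.147). It also ended with median-ratio scaling (0.0726), with quantile normalization (0.0731) and with only the 2 groups compared (0.0584). In Napin:SCL15 against scl15, FUS3 was the gene that fell (-0.60, limma adjusted p = 0.0438), a call kept under 6 of 18 alternatives. With median-ratio scaling that difference was -0.18 (adjusted p = 0.591). Embryo storage genes, 4 in all, summed to 228565 to 261004 TPM in Napin:SCL15, 132264 to 146589 TPM in scl15 and 151695 to 165143 TPM in WT. Of these 4, 0 were called in scl15 against WT (0 also at an unadjusted p under 0.05), where 15.5% of all genes were. In Napin:SCL15, 1 was called higher against WT and 3 against scl15, where 1.68% and 6.16% of all genes were. The call against WT, of the cruciferin gene CRA1, ended without any single Napin:SCL15 or WT library (0.0936 to 0.13), and without scl15 replicate 1 (0.0571) or 3 (0.0509).

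Of the flowering time genes among the members, AGL31 and SOC1 were not called in any comparison with the main settings. AGL31 (MAF2), a repressor of flowering, stood at 8.11, 6.82 and 10.2 TPM in Napin:SCL15, at 13.0, 9.36 and 13.5 TPM in scl15 and at 8.32, 11.9 and 13.1 TPM in WT. The groups overlapped, and the log2 fold change in Napin:SCL15 against scl15 was -0.47 (adjusted p = 0.0627). It was past the threshold with the replicate block (0.0312) and without Napin:SCL15 replicate 3 (0.0293), WT replicate 1 (0.0477) or scl15 replicate 2 (0.0254). SOC1 (AGL20), which promotes flowering, averaged 1.51 TPM in Napin:SCL15, 2.70 TPM in scl15 and 2.58 TPM in WT. It was not called against WT or between the lines (-0.61 in Napin:SCL15 against scl15, adjusted p = 0.0747), except without Napin:SCL15 replicate 3, where it was lower than in scl15 (-0.88, adjusted p = 0.0145) and WT (-0.78, 0.0449), and with the replicate block against scl15 (0.0417).

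AGL42 (AT5G62165), known as FOREVER YOUNG FLOWER for delaying senescence and abscission of floral organs, stood at 1.20, 1.32 and 2.30 TPM in Napin:SCL15, at 3.10, 2.58 and 2.10 TPM in scl15 and at 3.35, 4.08 and 2.24 TPM in WT. The lowest WT library lay just under the highest Napin:SCL15 library. AGL42 fell in Napin:SCL15 against WT by 0.70 (SE 0.23, adjusted p = 0.0372). The fall was not past the threshold with median-ratio scaling (-0.48, adjusted p = 0.223), nor without WT replicate 1 (0.099), WT replicate 2 (0.137), Napin:SCL15 replicate 1 (0.119) or replicate 2 (0.121). Between Napin:SCL15 and scl15 it was -0.48 (adjusted p = 0.0931, or 0.0313 without Napin:SCL15 replicate 3).

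AGL16 (AT3G57230), a repressor of flowering, stood at 4.70, 5.32 and 4.10 TPM in Napin:SCL15, at 8.19, 7.81 and 7.48 TPM in scl15 and at 5.20, 10.6 and 5.18 TPM in WT. WT replicate 2 was the highest library and the other WT libraries lay near those of Napin:SCL15. AGL16 fell in Napin:SCL15 against scl15 by 0.63 (SE 0.22, adjusted p = 0.0268). It was not past the threshold after median-ratio scaling (-0.26, adjusted p = 0.395), nor without Napin:SCL15 replicate 1 (0.059) or 3 (0.0756) or scl15 replicate 1 (0.0779) or 2 (0.0529). AGL26, annotated as a tRNA methyltransferase, stood at 5.25, 4.55 and 6.26 TPM in Napin:SCL15, at 9.17, 8.34 and 9.29 TPM in scl15 and at 7.11, 8.94 and 6.40 TPM in WT. It fell in Napin:SCL15 against scl15 by 0.65 (SE 0.16, adjusted p = 0.0048), and by 0.27 with median-ratio scaling (adjusted p = 0.197). Napin:SCL15 against WT gave -0.41 (adjusted p = 0.0746, or 0.0441 without Napin:SCL15 replicate 3). It overlaps AT5G26865 on the same strand, so reads may be shared.

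Among root genes, ANR1 (AGL44, AT2G14210), which couples nitrate to root branching, stood at 0.150, 0.655 and 0.124 TPM in Napin:SCL15, at 1.50, 2.01 and 1.74 TPM in scl15 and at 0.556, 0.812 and 0.319 TPM in WT. Every scl15 library lay above all others. ANR1 averaged 0.874 TPM and stood below the filter. With no filter it was called higher in scl15 against WT (0.82, SE 0.18, adjusted p = 0.0193) and lower in Napin:SCL15 against scl15 (-1.09, SE 0.18, adjusted p = 0.0015). AGL12, which acts in root development, stood at 0, 0.166 and 0 TPM in Napin:SCL15, at 0 in scl15 and at 0.483, 0.353 and 0.452 TPM in WT. With no filter AGL12 was called lower against WT in Napin:SCL15 and in scl15, where 2.28% and 1.52% of low genes were. It entered that fit almost only through its WT libraries, so the direction was set beforehand. No p is given for it, and the calls are no support for a change.

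Of the MIKC-star genes, AGL66 was at 0 in every library and AGL104 was above 0 in scl15 libraries only. The pollen-type MIKC-star genes AGL30, AGL65 and AGL94 were low, and none was called against WT. AGL30, the only tested one of these, averaged 1.79 TPM in Napin:SCL15, 1.87 TPM in scl15 and 2.49 TPM in WT. AGL65 stood at 0.786 to 1.66 TPM in Napin:SCL15, at 0.823 to 0.936 TPM in scl15 and at 0.834 to 1.08 TPM in WT, so the groups overlapped. AGL94 stood at 0.586, 0.428 and 0.396 TPM in Napin:SCL15, at 0.0628, 0.114 and 0 TPM in scl15 and at 0.679, 0.413 and 0.136 TPM in WT. With no filter on low values AGL94 was higher in Napin:SCL15 than in scl15 (0.47, SE 0.13, limma adjusted p = 0.0220), where 1.35% of low genes were. Every scl15 library of AGL94 lay below every WT library, and that difference was not called (-0.40, adjusted p = 0.0997). Its upstream region holds 2 G-boxes (CACGTG), a motif that no other member's region held and that 6.49% of all promoters did. The 5 pollen markers summed to 6.15 to 7.26 TPM in Napin:SCL15, 3.27 to 10.6 TPM in scl15 and 11.5 to 19.6 TPM in WT, and HTR10, found in sperm cells, was at 0 in every library. Of 4 tested, 2 were lower in scl15 and 1 in Napin:SCL15 against WT, where 6.31% and 23.4% of all genes were. They were AGP11 and VGD1 in scl15 (limma adjusted p = 0.0174 and 0.0129) and VGD1 in Napin:SCL15 (0.0129). None of these calls held without WT replicate 3 (0.0727, 0.0628 and 0.0631), nor VGD1 in Napin:SCL15 with median-ratio scaling (0.0804). AGP11 in scl15 was also not past the threshold without scl15 replicate 1 (0.08) or 2 (0.0603), nor VGD1 without scl15 replicate 1 (0.0557). The part of pollen content in the MIKC-star values was not tested.

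Other MADS-box genes, 19 in the list and 15 tested, among them FUL and AGL62, which the rule of selection left out, include the regulators of carpel, ovule and floral organs. Against WT, 0 rose and 10 fell in Napin:SCL15 (0 and 12 at an unadjusted p under 0.05), with a median of -0.67, where 23.4% of all genes fell and the median of all genes was -0.28. The difference between this list and the AGAMOUS-like genes was not tested. Against scl15, 1 rose and 11 fell in Napin:SCL15, with a median of -0.78, where 43.1% of all genes fell and their median was -0.38. In scl15 against WT 2 rose and 1 fell, where 9.18% and 6.31% of all genes did. With median-ratio scaling the counts in Napin:SCL15 were 1 higher and 4 lower against WT and 1 higher and 7 lower against scl15. The shares of all genes called with that scaling are not given, so these counts are not to be read against 23.4% and 43.1%. The fall of AG, the carpel identity gene after which the members are named, was 0.89 in Napin:SCL15 against WT (adjusted p = 0.0010), at 5.95 ± 0.320 and 11.9 TPM. SEP4, a partner of floral organ regulators, followed the same order as AGL87, with means of 2.85 TPM in Napin:SCL15, 14.4 TPM in scl15 and 6.13 TPM in WT. SEP4 changed by -0.88 in Napin:SCL15 and by 1.13 in scl15 against WT (adjusted p = 0.0042 and 5.9e-04). SHP1, which shapes the valve margin where pods open, fell in scl15 against WT by 1.33 (limma adjusted p = 1.2e-04). SHP1 was also lower in Napin:SCL15 than in WT (-0.63, adjusted p = 0.0170). That call ended with median-ratio scaling (0.280) and without WT replicate 2 (0.0696). Of 5 silique wall markers 1 rose and 1 fell in scl15, and 0 rose and 2 fell in Napin:SCL15 against WT. With median-ratio scaling these counts were 0 and 2 in scl15 and 0 and 0 in Napin:SCL15, again with no share of all genes given. There IND and ALC, regulators of pod opening, missed the threshold in Napin:SCL15 against WT (limma adjusted p = 0.0576 and 0.0540). The organ genes AP3 and PI summed to 15.3 to 26.8 TPM in Napin:SCL15, 30.4 to 41.2 TPM in scl15 and 20.0 to 29.4 TPM in WT, with 0 called in scl15 (1 at an unadjusted p under 0.05) and 1 called lower in Napin:SCL15 against WT.

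**Figure D5:**
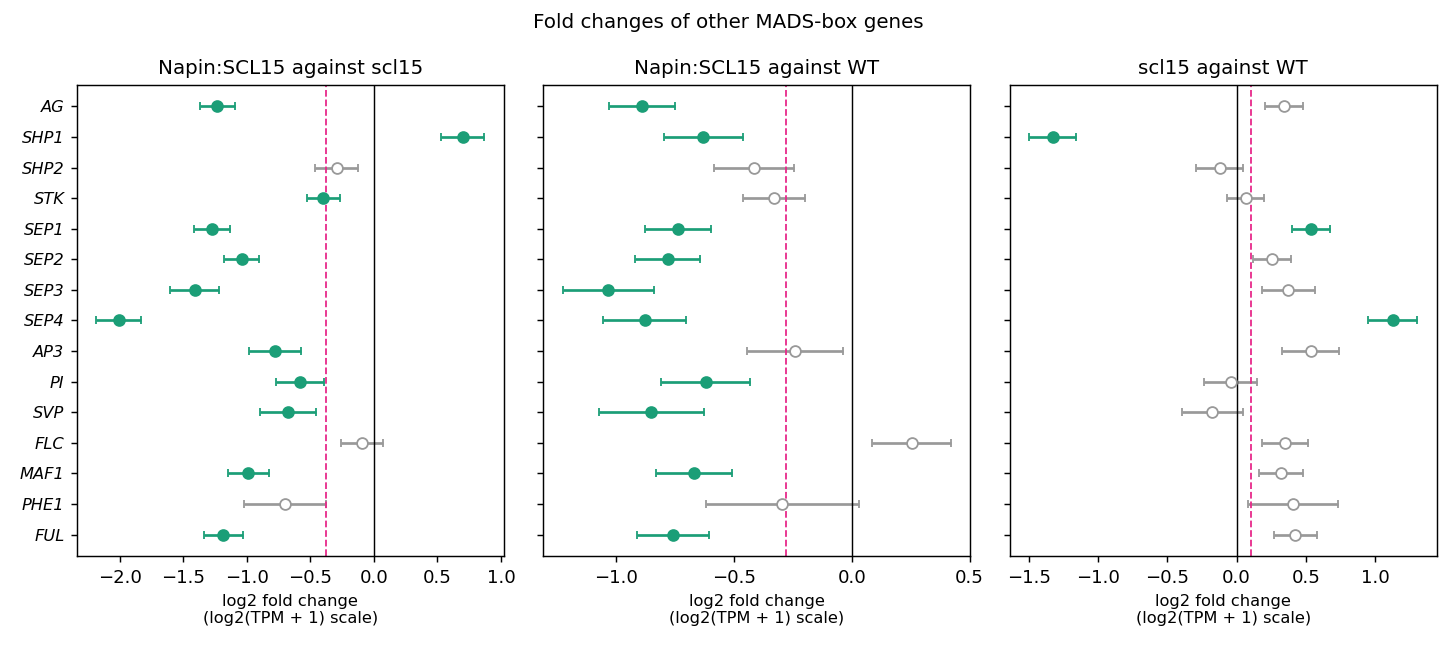
Log2 fold changes with standard errors (bars) of the 15 tested genes in the list of other MADS-box genes, FUL (AGL8) included, on the log2(TPM + 1) scale; filled green points were called at an adjusted p of 0.05, and the dashed line is the median of all genes. Against WT, 10 genes were called lower in Napin:SCL15, and in scl15 against WT SEP4 and 1 other gene were called higher and SHP1 lower.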

How the data were processed

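Transcript levels were measured by polyA RNA sequencing in 9 silique libraries, with stranded library kits per the labels' protocols. The deposited values are TPM per gene, made by the authors and scaled to a total of 1000000 per library, per the file headers and the values, and TPM keep no depth. Per the submitters' processing notes the genome build was TAIR 10; aligner, counting tool, strand use and filters: not given in the sources used here. Genes averaging 1 TPM or more entered a limma (3.58.1, R 4.3.3) fit of log2(TPM + 1) with a trend of the prior variance on abundance and all 9 libraries (6 residual degrees of freedom) and Benjamini-Hochberg adjustment over 16555 genes. The fit was tested on simulated data. Fold changes understate those of low genes, and their errors are standard errors (SE). Every member averaging at least 1 TPM is named, with each library's value for those called and the 6 of highest level; low members with a library at 1 TPM or more and up to 4 called genes of largest change per list are named, fewer where a call was fragile, a choice made after values were seen. Classes and roles of the members are textbook background. Some sequences are not reported here. The lists were other MADS-box genes, seed targets of AGAMOUS-like factors, embryo storage, silique wall, endosperm, pollen and petal and stamen genes. Members and lists were chosen with earlier results of these data known. Coordinates, exons and upstream sequences come from RefSeq TAIR10.1. Shared 50-base stretches are counted over exons. Same-numbered libraries of Napin:SCL15 and WT deviated together (correlations 0.127, 0.179 and 0.149), a pairing seen in the data only, and the replicate block changed no call of a member there. Those of Napin:SCL15 and scl15 had 0.0743, 0.161 and 0.129, and the block added calls of members there. Python 3.11.15, pandas 2.3.3 and matplotlib 3.10.9 prepared tables and figures.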

Additional observations from a re-analysis of the deposited data

How the results depend on the processing

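Counts of AGAMOUS-like genes called moved with the settings (limma, 18 alternatives, 17 of them chosen with the design and 1 after seeing the data), and causes were not tested. In scl15 against WT the main count was 2, and it was 1 with a pseudocount of 0.1 TPM, 7 with no filter on low values, 1 with a filter of 5 TPM and 1 with either median-ratio scaling or quantile normalization. In Napin:SCL15 against WT it was 2, and 1 with no filter, 1 with the 5 TPM filter and 0 with either scaling, where 3 and 2 genes had an unadjusted p under 0.05. In Napin:SCL15 against scl15 it was 5, and 11 with no filter and 3 with either scaling. The counts of 7 and 11 with no filter include genes that were above 0 in scl15 libraries alone. Those of 7 and 1 with no filter include AGL12, which entered almost only through its WT libraries. Members tested were 12 with the main settings, 46 with no filter and 7 with the 5 TPM filter. The share of all genes called under each setting is not given, so these counts are not to be read as changes of the members. Leaving out 1 library gave 0 to 2, 0 to 4 and 3 to 6 for scl15 against WT, Napin:SCL15 against WT and Napin:SCL15 against scl15; the 0 in scl15 against WT came without scl15 replicate 3, where 1 gene had an unadjusted p under 0.05, and the 0 in Napin:SCL15 against WT without Napin:SCL15 replicate 2 or WT replicate 1, where 2 and 7 did. Leaving out replicate 3 of both lines gave 0, 4 and 5. The replicate block gave 2 and 2 against WT and 8 in Napin:SCL15 against scl15, with AGL15, AGL31 and SOC1 added. Same-numbered libraries of Napin:SCL15 and scl15 had correlations of 0.0743, 0.161 and 0.129, each above those with other numbers. Those of scl15 and WT had 0.35 and 0.266 for replicates 2 and 3, above those with other numbers. For replicate 1 the correlation of scl15 and WT was -0.06, below 0.113 with another number. The deviations of the 3 libraries of a group sum to 0, so correlations with the same and with other numbers are tied to each other. The labels state no pairing. Of the named genes' values 1676 kept their side of the threshold, 144 lost and 34 gained a call, and 0 called values turned direction. Depth is unknown, so how many reads lie behind values under 1 TPM cannot be given.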
